A study of Mus musculus with 62 samples.

Results

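The transcripts of tau, of the neuronal microtubule proteins beside it and of the kinases that phosphorylate it were followed across an amyloid mouse model and a hippocampal cell line. The 10 genes were taken by name from the deposited gene tables, with the values of all entries of 1 gene identifier summed, and they are 10 of 53975 gene identifiers. They comprise Mapt (tau), the microtubule-associated proteins Map1a, Map1b and Map2, the neuronal beta-tubulin Tubb3, the kinases Gsk3b, Cdk5 and Mark1, and the Cdk5 activators Cdk5r1 and Cdk5r2. A further 107 genes of the same pathway, in 7 lists, were read beside them.

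Tau binds along axonal microtubules, and its affinity for them falls when it is phosphorylated. In Alzheimer's disease, phosphorylated tau leaves the microtubule and collects in tangles inside neurons, while amyloid beta collects outside them. GSK3 beta, the product of Gsk3b, and CDK5 are major proline-directed tau kinases, and CDK5 is active only with the p35 or p39 activator encoded by Cdk5r1 or Cdk5r2, whereas MARK1 phosphorylates tau inside its microtubule-binding repeats. The libraries hold RNA, so neither protein nor its phosphorylation was measured.

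Of the 62 libraries in the series, the 31 of long RNA carry gene values. Of these, 17 came from mouse hippocampus, with both hippocampi of each mouse pooled. They were of 2 strains: APP NL-G-F, a knock-in line in which the mouse's own App gene carries a humanised, mutated amyloid beta region, with 3 mice at 3 months, 3 at 6 months and 3 at 12 months, and C57BL/6J (WT), with 2 mice at 3 months, 3 at 6 months and 3 at 12 months. The other 14 came from HT-22, an immortalised mouse hippocampal line at passage 4. For 24 h the cells were treated with either 150 nM of a locked nucleic acid (LNA) directed at Hsf1 or a scramble LNA, whose concentration the labels give as 50 uM. Amyloid beta peptide 1-42, or its amino acids in reverse order, was then added at 30 uM in DMSO. There were 4 scramble libraries with each peptide and 3 anti-Hsf1 libraries with each peptide, and cells without LNA or without peptide were not analysed here. The mouse replicates are separate mice. The HT-22 replicates are called biological, but no separate cultures are described, so p-values there measure only the spread between these samples.

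Values are TPM, a share of all transcripts corrected for gene length, rescaled across libraries by the median of ratios and called scaled TPM here. Differences are on the log2(scaled TPM + 1) scale, which understates the change of low genes. They were tested with limma over all genes of a fit, and a gene was called at a Benjamini-Hochberg adjusted p below 0.05. Some facts of the libraries touch the results. The Y-linked gene Ddx3y was at 18.4 to 28.0 scaled TPM in the WT mice of 6 and 12 months and at 0 to 0.0788 in all other mice, so genotype at these ages, and age within WT from 3 months, cannot be told apart from sex as these transcripts show it. The average of ages and the genotype by age interaction draw on the same groups and carry the same limit. One APP mouse of 3 months (replicate 1) stood apart, with thalamus markers summing to 376 scaled TPM against 20 to 118 in the other mice. Next were another APP mouse of 3 months at 118 and 1 APP mouse of 6 months at 99.9, and all further mice lay at 20 to 35.3. In HT-22, immediate-early genes summed to 1060 and 1183 in replicates 3 and 4 of scramble with amyloid peptide and to 1241 in replicate 4 of scramble with reverse peptide, against 127 to 200.1 in the other HT-22 libraries. Hsf1 itself overlapped between all 4 HT-22 groups, at 46.9 ± 4.04 (SD, n = 3) scaled TPM with anti-Hsf1 and 61.4 ± 9.45 (SD, n = 4) with scramble under amyloid peptide, and at 47.8 ± 4.78 (SD, n = 3) and 53.5 ± 7.92 (SD, n = 4) under reverse peptide.

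The results turn on which of these genes the cell line carries, so the stretch upstream of 3 of them is shown: Map2 and Cdk5r2, which were listed at 0 in nearly all HT-22 libraries, and Gsk3b, whose values in HT-22 and hippocampus overlapped. Each is 150 bases of the + strand of GRCm38.p6, from base 250 to base 101 before the RefSeq start, and capitals mark GGGCGG or TATAAA on either strand. The windows lie at chr1:66175079-66175228, chr1:74854779-74854928 and chr16:38088751-38088900 in the order printed.
Map2: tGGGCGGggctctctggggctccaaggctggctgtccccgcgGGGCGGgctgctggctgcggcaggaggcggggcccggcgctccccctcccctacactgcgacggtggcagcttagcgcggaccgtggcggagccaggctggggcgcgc
Cdk5r2: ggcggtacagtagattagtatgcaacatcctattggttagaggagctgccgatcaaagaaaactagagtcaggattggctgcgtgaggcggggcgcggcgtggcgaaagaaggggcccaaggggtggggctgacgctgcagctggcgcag
Gsk3b: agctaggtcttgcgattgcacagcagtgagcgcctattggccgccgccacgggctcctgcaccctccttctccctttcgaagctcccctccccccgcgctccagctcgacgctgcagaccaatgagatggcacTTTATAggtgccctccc

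The Map2 window holds GGGCGG, the GC box, at 2 places, and the Gsk3b window holds TATAAA once, on the opposite strand. GGGCGG or its reverse complement CCGCCC occurred in 16.9% of 32493 RefSeq windows of this position and length, and TATAAA or its reverse complement TTTATA in 7.24%. The binding motif of the neuronal gene repressor REST was searched by its core TTCAGCACC and its reverse complement GGTGCTGAA, which occurred in 0.194% of windows and in none of the 3. All 3 windows are rich in CG pairs, with 16 in Map2 and 10 each in Cdk5r2 and Gsk3b against a median of 3.0, and 7.58% and 19.2% of windows have as many as these. RefSeq windows were at hand for 7 of the 10 genes.

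In the hippocampus all 10 genes were expressed in every mouse, at levels that spanned more than an order of magnitude. TPM is corrected for length, so levels were set side by side between genes on that column. Over the 17 mice Map2, the protein of dendritic microtubules, was the highest at 269 ± 37.3 scaled TPM (SD, n = 17), followed by Map1b at 239 ± 26.1 and Map1a at 183 ± 25.6. Tubb3 stood at 85.9 ± 19.6, Mapt at 62.0 ± 15.8, Cdk5r1 at 61.9 ± 9.69 and Cdk5r2 at 59.3 ± 12.3. The kinases were lower, with Gsk3b at 32.7 ± 15.9, Cdk5 at 28.1 ± 3.16 and Mark1 at 16 ± 3.12. Map2 and Map1b differed by less than the SD of Map2, Mapt and the 2 activators by less than any of their SDs, and Gsk3b and Cdk5 by less than the SD of Gsk3b. Both Cdk5 activators thus stood above the kinase they switch on.

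The order between genes depends on the deposited column. On the coverage column, without rescaling, the means were 155 for Map1a, 109.6 for Tubb3, 75.9 for each of Cdk5r1 and Cdk5r2, 45.6 for Map1b, 32.2 for Map2, 28.5 for Cdk5, 27.9 for Gsk3b, 23.2 for Mapt and 19.8 for Mark1. Map2 was thus not the highest there, while the activators again stood above Cdk5. Coverage per TPM, set to 1 at each library's most frequent ratio, had a mean of 0.0945 for Map2 and 0.149 for Map1b, against 0.669 for Map1a and 0.999 for Tubb3. On scaled TPM the spread between mice differed between genes, and the coefficient of variation was 10.9% for Map1b and 11.2% for Cdk5, 25.5% for Mapt and 48.8% for Gsk3b.

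**Figure D1:**
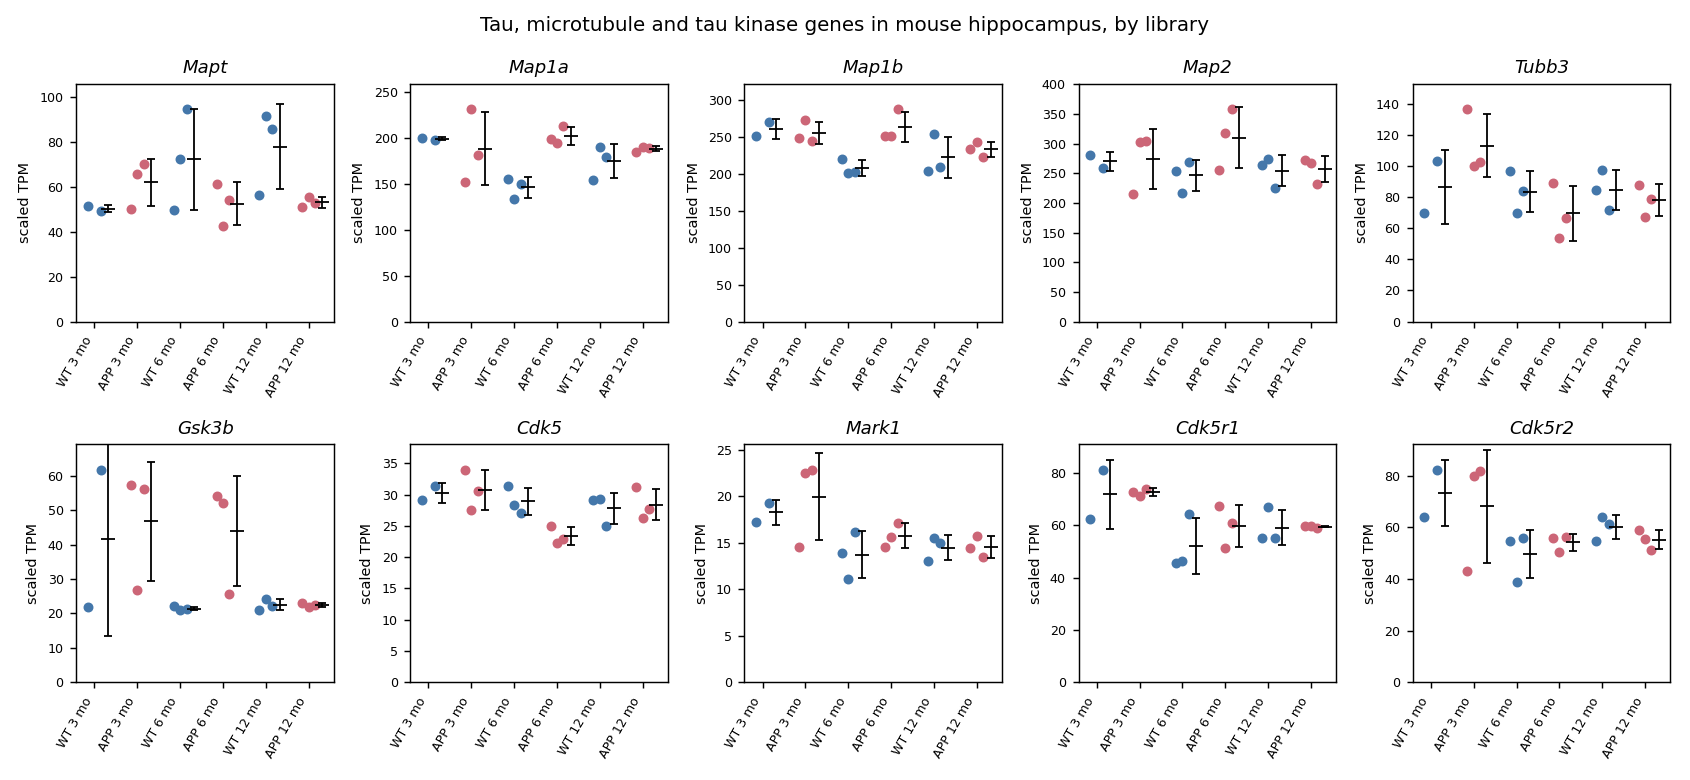
Each panel plots the scaled TPM of 1 gene (vertical axis) in each of the 17 hippocampus libraries (points) for APP and WT mice at 3, 6 and 12 months, and the bars give group mean and SD. Gsk3b falls on a level of 21.0 to 26.9 and a level of 52.2 to 61.8, while Cdk5 stays between 22.2 and 33.9.

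None of the 10 genes was called in any of the 11 mouse comparisons. The share of all 17720 genes called was low too: 0.299% for APP against WT at 3 months, 1.51% at 6 months, 0.451% at 12 months, 0.22% over the average of ages and 0.451% for the genotype by age interaction. With age it was 0.186% in WT from 3 to 6 months, 0.0621% from 3 to 12 and 0.0% from 6 to 12. In APP mice it was 2.19% from 3 to 6 months, 3.34% from 3 to 12 and 0.564% from 6 to 12. At an unadjusted p below 0.05, 4 of the 10 genes passed in APP against WT at 6 months, where 16.9% of all genes did, and 5 of 10 in WT from 6 against 3 months, where 14.1% of all genes did. The corresponding numbers for APP against WT were 0 at 3 months (13.3% of all genes), 1 at 12 months (6.95%), 0 over the average of ages (12.2%) and 1 for the interaction (15.9%). With age they were 1 in WT from 3 to 12 months (8.39%) and 0 from 6 to 12 months (6.77%). In APP mice they were 2 from 3 to 6 months (18.7%), 3 from 3 to 12 (16.5%) and 2 from 6 to 12 (11.3%). Comparisons within 1 genotype or at 1 age share groups, so the values below are not independent of each other.

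Whether the mice of 2 groups overlapped was counted as well, beside the share of all genes without overlap in either direction. For APP against WT, 0 of the 10 genes were without overlap at 3 months (27.1% of all genes), 4 at 6 months (21.2%; Map1a, Map1b and Gsk3b higher, Cdk5 lower) and 1 at 12 months (15.5%; Mapt lower). Within WT it was 4 from 3 to 6 months (31.6%; Map1a, Map1b, Mark1 and Cdk5r2 lower), 4 from 3 to 12 months (27.0%; Mapt higher, Map1a, Mark1 and Cdk5r2 lower) and 0 from 6 to 12 months (12.1%). In APP mice it was 3 from 3 to 6 months (20.4%; Tubb3, Cdk5 and Cdk5r1 lower), 4 from 3 to 12 months (22.0%; Map1b, Tubb3, Gsk3b and Cdk5r1 lower) and 4 from 6 to 12 months (19.8%; Cdk5 higher, Map1a, Map1b and Gsk3b lower). Map1b in APP mice, for one, read 248, 273 and 245 scaled TPM at 3 months and 233, 243 and 223 at 12 months, groups that do not overlap but lie close together.

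The summed levels of some cell type marker lists also differed between the genotypes without overlap at each age. The lists not named for an age overlapped. At 3 months there were only 2 WT mice, and 27.1% of single genes did not overlap. At 6 and 12 months 21.2% and 15.5% of single genes did not overlap. In whole hippocampus fewer cells of a type and less RNA per cell cannot be told apart. At 3 months the APP mice were lower for markers of dentate gyrus (29.2 to 39.3 scaled TPM against 47.2 to 62.1 in WT), CA pyramidal cells (40.8 to 83.5 against 97.0 to 117) and astrocytes (971 to 1119 against 1142 to 1189). They were higher at that age for markers of oligodendrocytes (1559 to 2635 against 1467 to 1533), striatum (49.7 to 171 against 42.9 to 46.0) and thalamus (34.3 to 376 against 25.7 to 32.6). At 6 months the APP mice were higher for dentate gyrus (61.8 to 71.6 against 34.9 to 49.9), astrocyte (1284 to 1506 against 1132 to 1281), pituitary (3.37 to 101 against 0.513 to 0.908) and immature neuron markers (7.85 to 10.7 against 6.54 to 7.51), and lower for choroid plexus markers (38.4 to 906 against 1138 to 1341).

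At 12 months the APP mice were higher for markers of microglia (253 to 294 against 118 to 142), astrocytes (1556 to 1727 against 1190 to 1238), oligodendrocytes (1125 to 1258 against 1000.4 to 1027) and choroid plexus (1429 to 1652 against 419 to 1312). The 8 neuron markers summed to 1740 to 1809 in APP and 1815 to 2031 in WT mice of 12 months, narrowly lower in APP without overlap, and overlapped at 3 and 6 months. Single markers called were 3 of 8 for microglia at 12 months, Csf1r and Tyrobp among them, 1 of 7 for astrocytes at 12 months, 1 of 4 for dentate gyrus at 6 months, C1ql2, and 1 of 4 for CA pyramidal cells at 3 months. Of all genes 0.299% were called at 3 months, 1.51% at 6 months and 0.451% at 12 months. The part of these cell types in the values below was not tested.

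Mapt lay on chromosome 11 (GRCm38 chr11:104231390-104332090, + strand, ENSMUSG00000018411). In WT mice it read 51.5 and 49.2 scaled TPM at 3 months, 49.7, 72.7 and 94.7 at 6 months, and 56.3, 91.5 and 85.8 at 12 months. In APP mice it read 50.2, 65.6 and 70.2 at 3 months, 61.1, 42.4 and 54.0 at 6 months, and 51.0, 55.7 and 52.8 at 12 months. The WT mice thus ranged more widely at the later ages, and at 12 months all 3 APP mice lay below all 3 WT mice. The log2 difference between APP and WT was 0.28 (SE 0.25, adjusted p = 0.693) at 3 months, -0.42 (SE 0.22, adjusted p = 0.356) at 6 months and -0.51 (SE 0.22, adjusted p = 0.643) at 12 months. Within WT it was 0.59 (SE 0.25, adjusted p = 0.544) from 3 to 12 months, again without overlap. The interaction of genotype and age gave an adjusted p of 0.347. Mapt shares 8460 bases with Gm11659 on the other strand, which had a mean of 1.06 scaled TPM in the mice.

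The Mapt values depend on which deposited column is read. Read from the coverage column, the mean read depth over the gene, the 12-month difference was 0.13 (SE 0.48, adjusted p = 0.997), the opposite sign of the TPM value, and the WT difference from 3 to 12 months was 0.02 (SE 0.54, adjusted p = 0.995). On coverage the 6-month difference was -0.71 (SE 0.48, adjusted p = 0.475), and on TPM without rescaling it was 0.28. The ratio of coverage to TPM, set to 1 at each library's most frequent value, ran from 0.126 to 0.427 for Mapt over the 17 mice. In the 3 WT mice of 12 months it was 0.147, 0.427 and 0.126. The ratio for tau thus differed between mice of 1 group. For this gene the annotation lists 8 protein-coding transcript models of 293 to 5253 bases, and the part of the assigned transcript in the difference was not tested.

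The genes whose hippocampal pattern was most like that of Mapt over the 17 mice were Rundc3b (Pearson r 0.759), Sephs2 (0.721), Zfand5 (0.713), Fam172a (0.7) and Mmadhc (0.692), out of 7719 genes with a mean of at least 10 scaled TPM. The points share libraries and their scaling, and the correlations are a description only. With the other 9 genes Mapt correlated between -0.365 and 0.13, whereas Mark1 and Cdk5r2 correlated at 0.859, Map1a and Map1b at 0.802, and Tubb3 and Cdk5 at 0.793.

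Map1a and Map1b, the large light-chain-bearing proteins that cross-link microtubules in mature and in growing neurites, stood higher in APP than in WT mice at 6 months without overlap, although neither was called. Map1a (chr2:121289600-121310832, + strand) read 199, 195 and 214 scaled TPM in the APP mice and 156, 133 and 149.9 in the WT mice of 6 months. Map1b (chr13:99421446-99516540, - strand) read 252, 251 and 288 in APP and 220.3, 201 and 202 in WT. The lowest APP mouse therefore lay above the highest WT mouse for both genes. The log2 difference was 0.47 for Map1a (SE 0.13, adjusted p = 0.0849) and 0.34 for Map1b (SE 0.11, adjusted p = 0.114). Neither gene was called under any alternative but TPM as deposited, where both were.

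The 6-month WT mice were the low group for both. Map1a read 201 and 198 in WT at 3 months and 155, 191 and 180.0 at 12 months, and Map1b 251 and 270.0 at 3 months and 204, 254 and 209 at 12 months. From 3 to 6 months in WT the log2 change was -0.45 for Map1a (adjusted p = 0.195) and -0.32 for Map1b (adjusted p = 0.234), without overlap in either. In APP mice Map1a read 152, 232 and 182 at 3 months and 185, 191 and 189 at 12 months, and the low value of 152 belongs to the mouse that stood apart. For the interaction Map1a had an unadjusted p of 0.0318 and an adjusted p of 0.264. Map1a shares 272 bases with Ppip5k1 on the other strand, and Map1b shares 1963 bases with 5330431K02Rik on the same strand. Tubb3 shares 10592 bases with Gm20388, and Cdk5r2 shares 2799 bases with Gm16582, the full span of either member. Both of these lie on the same strand and had a mean of 0.0 scaled TPM in mice and in HT-22. The library kit does not mark strand, so reads of such overlaps cannot be told apart.

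Map2 (chr1:66175273-66442583, + strand) overlapped between the genotypes at every age. It read 255, 318 and 358 scaled TPM in APP and 255, 218 and 268 in WT at 6 months, with a log2 difference of 0.32 (SE 0.16, adjusted p = 0.317). At 3 months the APP mice read 216, 303 and 305 and the WT mice 281 and 259. At 12 months the APP mice read 272, 267 and 231 and the WT mice 265, 274 and 225, so that the range of 1 genotype nearly covered that of the other.

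Tubb3 (chr8:123411424-123422015, + strand), the beta-tubulin used as a neuronal marker, had its highest group mean in the APP mice of 3 months. These mice read 137, 100.1 and 103 scaled TPM, those of 6 months 88.9, 53.7 and 66.6, and those of 12 months 87.9, 67.4 and 79.0. All 3 mice of 3 months lay above all later APP mice, and the 137 is the mouse that stood apart. The log2 change was -0.71 from 3 to 6 months (SE 0.20, adjusted p = 0.0781) and -0.52 from 3 to 12 months (adjusted p = 0.196). Without replicate 1 of the 6-month APP mice the first of these reached an adjusted p of 0.0419, and the cause of that was not tested. In WT the values were 70.0 and 103 at 3 months, 96.8, 70.1 and 83.9 at 6 months, and 84.5, 97.4 and 71.7 at 12 months, all overlapping.

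**Figure D2:**
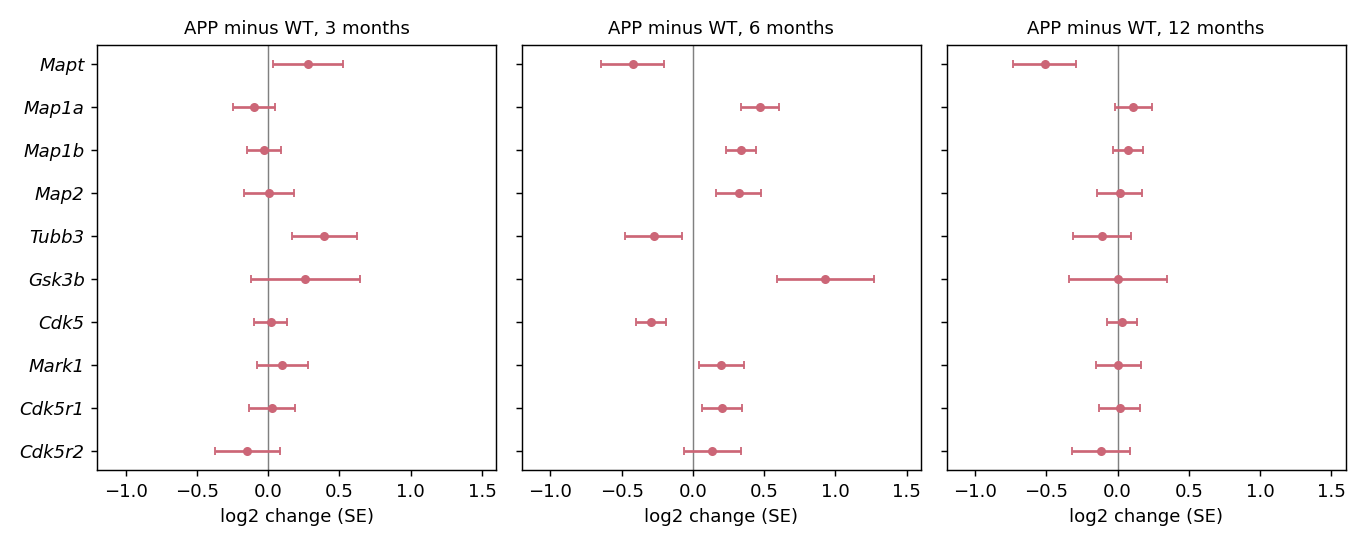
Points give the log2(scaled TPM + 1) difference, APP minus WT, of each of the 10 genes at 3, 6 and 12 months, and bars give the limma standard error. Mapt runs from 0.28 at 3 months to -0.51 at 12 months, Gsk3b stands at 0.93 at 6 months with an SE of 0.34, and no difference was called.

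Gsk3b (chr16:38089001-38246084, + strand) did not vary smoothly but fell on 2 levels. In APP mice it read 57.3, 26.9 and 56.2 scaled TPM at 3 months, 54.1, 52.2 and 25.7 at 6 months, and 23.1, 21.9 and 22.4 at 12 months. In WT mice it read 21.8 and 61.8 at 3 months, 22.1, 21.0 and 21.2 at 6 months, and 21.1, 24.2 and 22.2 at 12 months. Of the 17 mice, 12 lay between 21.0 and 26.9 and the other 5 between 52.2 and 61.8, with nothing between. The higher level held APP replicates 1 and 3 at 3 months, APP replicates 1 and 2 at 6 months and WT replicate 2 at 3 months, and no mouse of 12 months. A gap as wide, 0.93 on the log2 scale, with at least 3 libraries on each side, was present in 41 of 7720 genes (0.531%). The gap was looked for after the values had been seen.

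The level of Gsk3b went with the ratio of its 2 deposited columns. Relative to each library's most frequent ratio, coverage per TPM was 0.549 to 0.633 in the 12 lower mice and 0.677 to 0.715 in the 5 higher mice. The annotation lists 3 protein-coding transcript models of Gsk3b, from 656 to 8303 bases, and the part of the assigned transcript in the level was not tested. A similar split was present in the cell line, where 6 libraries read 22.4 to 27.1 at a ratio of 0.514 to 0.564 and 8 libraries read 39.5 to 57.9 at a ratio of 0.593 to 0.696. Both levels occurred in all 4 HT-22 groups. There the gap of 0.53 on the log2 scale was matched by 762 of 9428 genes (8.08%).

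The tests of Gsk3b inherit these levels. At 6 months the log2 difference between APP and WT was 0.93 (SE 0.34, adjusted p = 0.179), with all 3 APP mice above all 3 WT mice. Leaving out 1 mouse at a time moved it from 0.75 to 1.27, and the 3-month difference of 0.26 (SE 0.38, adjusted p = 0.834) from -0.47, without WT replicate 1, to 0.99, without WT replicate 2; the 1 WT mouse left there is assumed to vary like the other groups. Within APP mice Gsk3b changed by -0.95 from 3 to 12 months (adjusted p = 0.165) and by -0.87 from 6 to 12 months (adjusted p = 0.346), both without overlap. On coverage the 6-month difference was 1.07 (SE 0.40, adjusted p = 0.171).

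**Figure D3:**
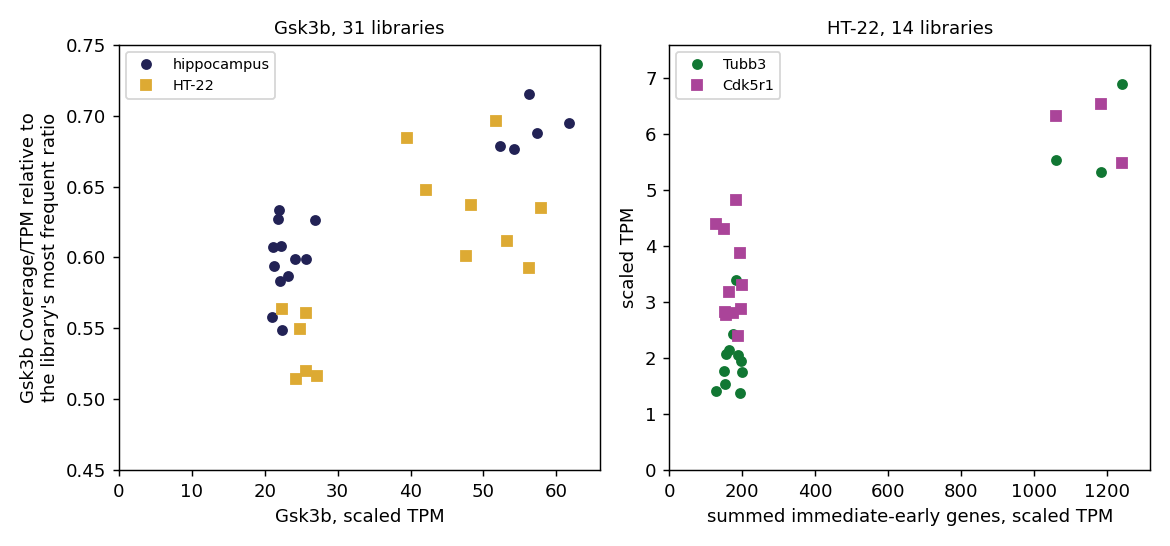
The left panel plots Gsk3b in scaled TPM against its relative coverage per TPM in all 31 libraries, where the mice of the higher level have a ratio of 0.677 to 0.715 and those of the lower level 0.549 to 0.633. The right panel plots Tubb3 and Cdk5r1 in scaled TPM against the summed scaled TPM of immediate-early genes in the 14 HT-22 libraries, where the 3 libraries above 1000 hold the highest values of both genes.

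Cdk5 (chr5:24418241-24423530, - strand), the kinase itself, varied little. At 6 months it read 25.0, 22.2 and 22.9 scaled TPM in APP mice and 31.3, 28.4 and 27.1 in WT mice, so the APP mice were the lower group without overlap. The log2 difference was -0.29 (SE 0.11, adjusted p = 0.168), and on TPM without rescaling it was 0.40, the opposite sign, where the median of all genes stood at 0.598. The APP mice of 3 months read 33.9, 27.5 and 30.6 and those of 12 months 31.2, 26.3 and 27.7, so the 6-month mice lay below both. Cdk5 changed by -0.37 from 3 to 6 months (adjusted p = 0.0743; 0.0499 without replicate 2 of the 3-month APP mice) and by 0.27 from 6 to 12 months (adjusted p = 0.345). WT mice read 29.2 and 31.3 at 3 months and 29.1, 29.3 and 24.9 at 12 months.

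Mark1 (chr1:184896789-184999570, - strand) was the lowest of the 10 genes in the hippocampus. In APP mice it read 14.6, 22.6 and 22.9 scaled TPM at 3 months, 14.5, 15.7 and 17.2 at 6 months, and 14.4, 15.8 and 13.5 at 12 months. The low 3-month value is again the mouse that stood apart. The log2 change from 3 to 12 months was -0.41 (adjusted p = 0.204), and without that mouse it was -0.61 (adjusted p = 0.0342). WT mice read 17.3 and 19.3 at 3 months, 13.9, 11.1 and 16.2 at 6 months, and 13, 15.5 and 15 at 12 months, with both 3-month mice above all later ones.

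The Cdk5 activators had their highest group means at 3 months in both genotypes, although no change with age was called. Cdk5r1 (chr11:80477023-80481184, + strand), which encodes p35, read 72.7, 71.0 and 74.0 scaled TPM in APP mice at 3 months, 67.2, 51.3 and 60.8 at 6 months, and 59.6, 59.6 and 59.1 at 12 months. In WT mice it read 62.5 and 81.1, then 45.6, 46.5 and 64.4, then 55.0, 66.9 and 55.3. The APP mice of 3 months lay above all later APP mice, while the WT ages overlapped, and the WT log2 change from 3 to 6 months was -0.46 (adjusted p = 0.215).

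Cdk5r2 (chr1:74854934-74857732, + strand), which encodes p39, read 43.0, 79.8 and 81.6 in APP mice at 3 months, 56.0, 50.4 and 56.1 at 6 months, and 59.0, 55.5 and 51.3 at 12 months, and the low value of 43.0 is the mouse that stood apart. In WT mice it read 64.1 and 82.2, then 54.5, 38.9 and 55.7, then 54.9, 64.1 and 61.1. Both WT mice of 3 months lay above those of 6 months, narrowly above the highest of 12 months, and the log2 change from 3 to 6 months was -0.55 (adjusted p = 0.288). In WT from 3 to 6 months Map1a, Map1b, Mark1 and Cdk5r2 were all lower without overlap, where 31.6% of all genes did not overlap in either direction. The median log2 change of the 10 genes was -0.36, against 0.0035 over all genes. These WT ages also differ in Ddx3y, so age and sex cannot be told apart here.

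Among the 107 other genes of the pathway, a few were called in the mouse comparisons, all of them lower. Their number was near the share of all genes called in each comparison. That share was 1.51% for APP against WT at 6 months (70 genes higher, 198 lower). In APP mice it was 2.19% from 3 to 6 months (193 higher, 195 lower) and 3.34% from 3 to 12 months (327 higher, 265 lower). The list genes called in APP against WT at 6 months were Stmn3 and Stmn4, both stathmin-family proteins that bind tubulin dimers. Stmn3 stood at 123 to 186 scaled TPM in APP and 234 to 248 in WT mice, a log2 difference of -0.72 (SE 0.16, adjusted p = 0.0367). Stmn4 stood at 54.7 to 74.1 in APP and 85.9 to 127 in WT, a difference of -0.63 (SE 0.15, adjusted p = 0.0478), which was 0.084 on TPM without rescaling. Both calls were lost when APP replicate 2 or 3, or any single WT mouse of that age, was left out. Both were also lost on TPM as deposited, without a filter on low values and with the compared groups alone, and that of Stmn4 with array weights and on scaled coverage too. No other gene of the 7 lists was called in this comparison.

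In APP mice from 3 to 6 months Tubb4a, a beta-tubulin of neurons and oligodendrocytes, fell from 243 to 259 scaled TPM to 139 to 178, by 0.65 on the log2 scale (SE 0.15, adjusted p = 0.0396), and Stmn4 fell from 103 to 132 to 54.7 to 74.1, by 0.81 (SE 0.15, adjusted p = 0.0149). The Stmn4 call was lost without APP replicate 2 or 3 of 6 months, on TPM as deposited and with the compared groups alone. The Tubb4a call was lost in 10 of 15 alternatives: under the same 4, without any single 3-month mouse, with array weights, with no filter on low values and with the replicate number as a block. In the same comparison 7 of 8 oligodendrocyte markers were called lower, their sum going from 1559 to 2635 scaled TPM at 3 months to 877 to 1105 at 6 months. The fall was not confined to APP mice. In WT mice this sum was 1467 to 1533 at 3 months, 797 to 1048 at 6 months and 1000.4 to 1027 at 12 months. Astrocyte markers went from 971 to 1119 at 3 months to 1284 to 1506 at 6 months, and dentate gyrus markers from 29.2 to 39.3 to 61.8 to 71.6. Markers of striatum went from 49.7 to 171 to 29.1 to 42.4, and 3 of 9 immediate-early genes were called lower. The astrocyte, dentate gyrus and striatum sums overlapped between WT mice of 3 and 6 months. The part of the marker and immediate-early genes in the Tubb4a and Stmn4 changes was not tested.

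From 3 to 12 months in APP mice 4 genes of the lists fell. Clasp2, which binds growing microtubule ends, went from 102 to 124 scaled TPM to 81.6 to 84.1, a log2 change of -0.42 (SE 0.09, adjusted p = 0.0271). Spast, the severing enzyme spastin, went from 20.5 to 25.4 to 14.3 to 16.6, a change of -0.51 (SE 0.12, adjusted p = 0.0295). Ttll7, which adds glutamates to tubulin, went from 85.8 to 131 to 53.0 to 64.8, a change of -0.75 (SE 0.17, adjusted p = 0.0277). The kinase Sgk1 went from 42.4 to 109 to 30.9 to 34.6, a change of -1.18 (SE 0.31, adjusted p = 0.0486). The later APP mice thus lay below the earlier ones in all 4 genes. All 4 calls were lost without APP replicate 1 of 3 months, the mouse that stood apart, or without any single 12-month mouse. Sgk1 was lost also without replicate 2 of 3 months and Spast without replicate 3. All 4 were lost on TPM as deposited and with the compared groups alone, and Ttll7, Spast and Sgk1 also on scaled coverage and without a filter on low values. Sgk1 was lost with upper-quartile scaling and a pseudocount of 0.1 as well, 11 of 15 alternatives in all. Here 5 of 8 oligodendrocyte markers were called lower, with a sum of 1125 to 1258 at 12 months. Of 9 immediate-early genes 3 were called lower as well, Fos, Egr2 and Dusp1, their sum over all 9 going from 117 to 368 scaled TPM to 95.1 to 104, and 5 of 8 microglia markers were called higher, with a sum going from 107 to 124 to 253 to 294. Astrocyte markers went from 971 to 1119 at 3 months to 1556 to 1727 at 12 months and dentate gyrus markers from 29.2 to 39.3 to 54.3 to 59.7. Immature neuron, striatum and thalamus markers were lower at 12 months without overlap. The part of these markers in the 4 changes was not tested.

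None of the 107 genes was called in APP against WT at 3 or 12 months or over the average of ages, where 16, 3 and 13 had an unadjusted p below 0.05, beside 13.3%, 6.95% and 12.2% of all genes. Within WT none was called either, with 18 from 3 to 6 months, 7 from 3 to 12 and 3 from 6 to 12 at that unadjusted level, beside 14.1%, 8.39% and 6.77% of all genes. None was called from 6 to 12 months in APP mice or for the interaction, where 9 and 17 passed the unadjusted level, beside 11.3% and 15.9% of all genes.

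In HT-22 cells the set was only partly present. Gsk3b, at 39.05 scaled TPM over the 14 libraries, was the highest on TPM, followed by Map1b at 24.8, Cdk5 at 20.5 and Map1a at 13.6. Cdk5r1 stood at 3.995, Tubb3 at 2.83, Mark1 at 2.69 and Mapt at 0.752, under the mean of 1 required for a test. Map2 was listed at 0 in 13 of 14 libraries, with 0.0274 in the other, and Cdk5r2 at 0 in all 14. The remaining 7 genes were tested. Checked against its label as a hippocampal line, HT-22 had a summed level of 8 neuron markers of 0 to 0.533 scaled TPM, with Rbfox3, Snap25, Syt1, Nefl, Nefm and Gad1 at 0 in all 14 libraries, where the mice had 1505 to 2127. Fibroblast-type markers summed to 5058 to 7561, against 232 to 332 in the mice. Thy1, 1 of these markers, went the other way, with a mean of 29.6 in HT-22 and 243.8 in the mice. It made up most of the mouse sum, whose mean was 280.7.

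No gene of the 7 was called for amyloid against reverse peptide or for anti-Hsf1 against scramble, in 5 comparisons. The share of all 17205 genes called was 0.0% in amyloid against reverse peptide with scramble (854 genes at an unadjusted p below 0.05), 0.0% with anti-Hsf1 (798), 0.0% in anti-Hsf1 against scramble with reverse peptide (624), 0.0232% with amyloid peptide (1553) and 0.0% for the interaction (882). Of the 7 genes, 1 passed the unadjusted level in each of the first 2 comparisons, Map1a both times, and none in the others. Without overlap were 0 of 7 for the peptide with scramble (2.36% of all genes), 1 with anti-Hsf1 (18.3%; Map1a higher), 1 for anti-Hsf1 with reverse peptide (5.95%; Tubb3 lower) and 0 with amyloid peptide (8.42%). Of the 88 other pathway genes tested, none was called in any of them.

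Map1a read 13.2, 14.5, 17.5 and 17.3 scaled TPM with scramble and amyloid peptide and 10.7, 12.7, 13.4 and 12.4 with scramble and reverse peptide. With anti-Hsf1 it read 19.0, 12.4 and 13.6 with amyloid and 10.8, 11.3 and 11.1 with reverse peptide. The amyloid libraries overlapped the reverse ones with scramble and lay above them with anti-Hsf1. The log2 difference was 0.31 with scramble (SE 0.14, adjusted p = 0.953) and 0.39 with anti-Hsf1 (SE 0.17, adjusted p = 1.0), and on TPM without rescaling the second was -0.16. Without the 3 libraries of high immediate-early genes the first was 0.16.

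Tubb3 and Cdk5r1 went with those 3 libraries. Tubb3 read 1.42, 2.07, 5.54 and 5.32 scaled TPM with scramble and amyloid and 2.06, 2.42, 3.40 and 6.90 with scramble and reverse peptide, and 1.78, 1.55 and 2.15, and 1.38, 1.94 and 1.75, in the matching anti-Hsf1 groups. The 3 libraries above 5 are the 3 with immediate-early sums of 1060 to 1241. With reverse peptide the anti-Hsf1 libraries lay below the scramble ones without overlap. The log2 difference of anti-Hsf1 against scramble was -0.71 with reverse peptide (SE 0.38, adjusted p = 0.959) and -0.57 with amyloid (SE 0.38, adjusted p = 0.592). Without the 3 libraries these were -0.42 and 0.04.

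Cdk5r1 read 4.40, 2.77, 6.32 and 6.54 with scramble and amyloid, 2.40, 2.81, 4.82 and 5.48 with scramble and reverse peptide, 4.32, 2.82 and 3.19 with anti-Hsf1 and amyloid, and 3.87, 2.88 and 3.30 with anti-Hsf1 and reverse peptide. Its highest 3 values again belong to those 3 libraries, and the difference of anti-Hsf1 against scramble with amyloid went from -0.40 (adjusted p = 0.614) to -0.04 without them. Map1b was at 29.2 to 32.3 scaled TPM in the same 3 libraries and at 19.2 to 25.2 in the other 11. A gap as wide, 0.207 on the log2 scale with at least 3 libraries on each side, was present in 2883 of 9428 genes (30.6%). How many of all genes had their highest 3 values in these same libraries was not counted, for Tubb3 and Cdk5r1 either. The part of the immediate-early genes, or of what they mark, in these values was not tested.

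Cdk5 and Mark1 did not separate any of the groups. Cdk5 ran from 16.5 to 25.3 scaled TPM and Mark1 from 1.68 to 3.77 over the 14 libraries, with all 4 groups overlapping in both. Mapt read 0.721, 0.493, 0.576 and 0.726 with scramble and amyloid, 1.08, 1.34, 1.41 and 0.547 with scramble and reverse peptide, 0.195, 0.336 and 0.853 with anti-Hsf1 and amyloid, and 0.572, 0.721 and 0.961 with anti-Hsf1 and reverse peptide. These levels are low and overlap, and they were not tested.

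**Figure D4:**
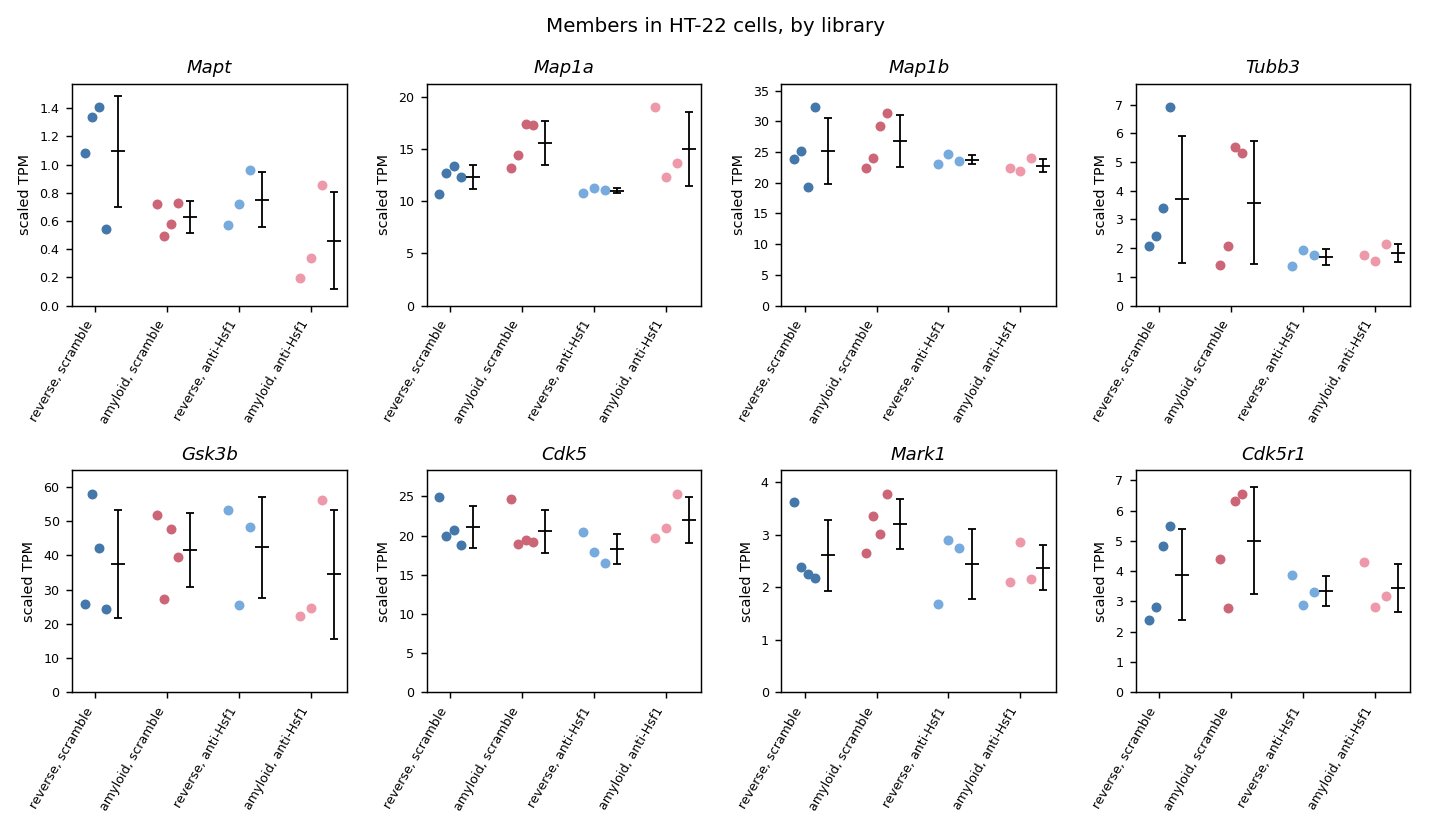
Each panel plots the scaled TPM of 1 of 8 genes in each of the 14 HT-22 libraries (points) by peptide and LNA, with bars at the group mean and SD; Map2 and Cdk5r2, listed at 0 in 13 and 14 libraries, are left out. Tubb3 spans 1.42 to 5.54 within scramble with amyloid peptide, which is wider than the distance between group means.

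Set beside the hippocampus on 1 common scale, all 10 genes were called lower in HT-22, where 49.7% of 19517 genes were called lower and 36.5% higher (86.2% in all). Of the 10, 9 showed no overlap between the 14 HT-22 and the 17 mouse libraries, which 32.7% of genes did in that direction. Mapt, Map2 and Cdk5r2 had HT-22 means below 1 scaled TPM and passed the filter of this fit only through the hippocampus. For these genes only a lower call was open, and the shares of all genes hold such genes too. On TPM, Mapt went from a mean of 82.9 scaled TPM in hippocampus to 0.518, a ratio of 159.9 between means, Tubb3 from 115 to 1.96 (ratio 58.6), Cdk5r1 from 82.9 to 2.76 (30.0), Map1a from 244 to 9.36 (26.1), Map1b from 320.4 to 17.1 (18.7) and Mark1 from 21.4 to 1.85 (11.6). Cdk5 went from 37.6 to 14.2 (2.66) and Gsk3b from 43.7 to 26.9 (1.63). Map2 had a mean of 359.9 in hippocampus and Cdk5r2 of 79.3, and since they are listed at 0 in all or nearly all HT-22 libraries no ratio is given. Tissue against cultured cells, and all handling that goes with each, cannot be told apart here.

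The fitted log2 differences were -5.76 for Mapt (SE 0.09), -5.40 for Tubb3 (SE 0.13), -4.59 for Map1a (SE 0.06), -4.53 for Cdk5r1 (SE 0.10), -4.17 for Map1b (SE 0.06), -2.99 for Mark1 (SE 0.08), -1.36 for Cdk5 (SE 0.05) and -0.65 for Gsk3b (SE 0.18, adjusted p = 0.0015). The last was 0.24 on TPM without rescaling (adjusted p = 0.202), where the median of all genes was itself 0.618, and the Gsk3b values of the 2 systems overlap. On scaled coverage all 10 were again called lower, but the difference of Mapt was -4.10 (SE 0.17), smaller than that of Tubb3 at -5.30, Map1a at -4.55 and Cdk5r1 at -4.45, so the order among these genes depends on the column. The median of the 10 genes on TPM, with Mapt, Map2 and Cdk5r2 included, was -4.56, against -0.21 over all genes. HT-22 thus held transcripts of Cdk5 without Cdk5r2 and with little Cdk5r1, and of Gsk3b at a level that overlapped the hippocampus with little Mapt.

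**Figure D5:**
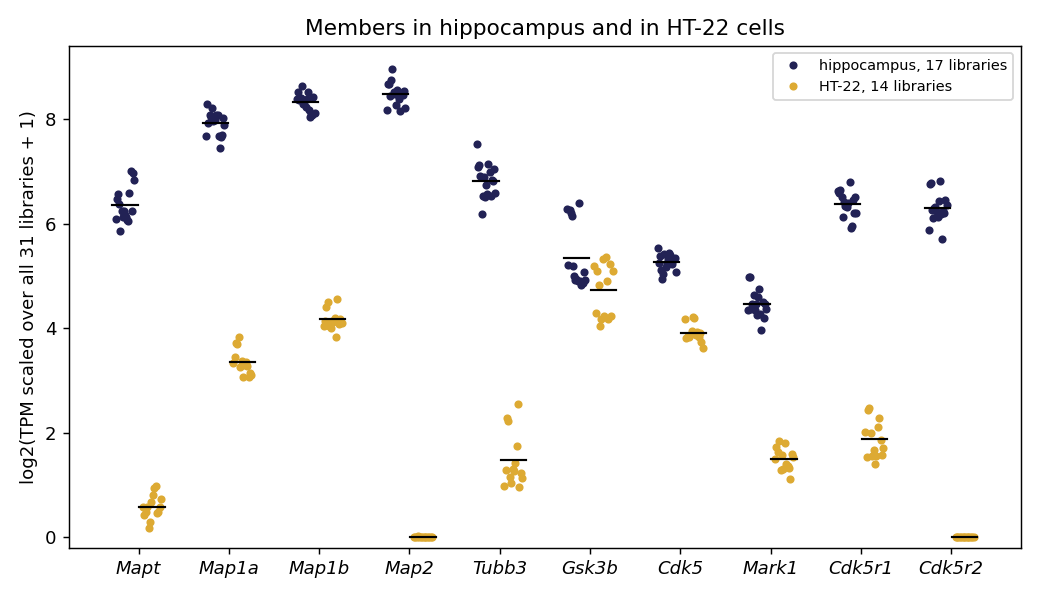
Points give log2(scaled TPM + 1), on a scale common to all 31 libraries, for each of the 10 genes in 17 hippocampus and 14 HT-22 libraries, and lines mark the means. Gsk3b overlaps between the systems, and the other 9 genes lie lower in HT-22 without overlap.

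The other lists divided in the same comparison. Each count of list genes called lower or higher stands beside 49.7% of all genes called lower and 36.5% called higher. This holds also for the kinases, phosphatases, kinase regulators and tubulin modifiers given further below. Of 13 further tubulins 6 were called higher and 7 lower in HT-22: Tubb4a had a mean of 261 scaled TPM in hippocampus and 0.455 in HT-22 (log2 difference -7.48) and Tubb2b 104 and 5.08 (-4.16), while Tubb6, a beta-tubulin of many non-neuronal cells, had 4.32 and 77.6 (3.78). Of 25 microtubule regulators 24 were called lower and none higher, the exception being the end-binding protein gene Mapre1, with Stmn3 at 260.5 and 0.143, Tppp at 166 and 0.0274 and Stmn2 at 149.9 and 0.0435, which were listed at 0 in 9, 10 and 11 of the 14 HT-22 libraries. All 9 microtubule motors were lower, and Kif5a, a kinesin heavy chain of neurons, had 486 and 0.174 and Kif5c 225 and 0.248, with Kif1a at 246 and listed at 0 in all 14 HT-22 libraries.

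Of 25 other tau kinases 20 were called lower and 4 higher, with Camk2a at 707 in hippocampus and 0.269 in HT-22 (log2 difference -9.11), Camk2b at 362 and 0.503 (-7.92) and Brsk1 at 121 and 1.01 (-5.95). Of 15 phosphatase genes, which encode the enzymes that take phosphate off tau and their subunits, 13 were lower and 1 higher. Among them the calcineurin subunit Ppp3r1 had 436 and 69.6 (-2.63), and the neuronal PP2A subunits Ppp2r2c and Ppp2r2b had 159 and 62.4 in hippocampus and were listed at 0 in 13 HT-22 libraries each.

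Of 7 kinase regulators 5 were higher and 2 lower: Cast, which encodes the calpain inhibitor calpastatin, had 4.88 and 43.6 (2.97), and Capn1, the catalytic subunit of a calpain, the protease that cuts p35 to p25, had 8.49 and 16.3 (0.85). Of 13 tubulin modifiers and severing enzymes 8 were lower and 4 higher, with Ttll7 at 96.5 and 4.27 (-4.21), the tubulin carboxypeptidase Vash1 at 13.9 and listed at 0 in all 14 HT-22 libraries, and its relative Vash2 at 1.5 and 15.7 (2.83). The calls of the genes named here from these lists were kept under every alternative run for each, 38 for Ppp2r2b and 39 for each of the others.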

How the data were processed

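Long-RNA libraries were made after ribosomal RNA depletion, per the labels' protocols. The submitters' processing notes name cutadapt 1.18, HISAT2 2.1.0 and StringTie 1.3.4d and the build GRCm38 (mm10), without roles for each gene table. The authors deposited 1 gene abundance table per library, with TPM and a coverage signal per gene per the file headers. TPM keeps no depth, so depth is unknown, no count model was run and no counting interval is given. No 2 libraries held identical values. Short-RNA count files were not used here.

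TPM was summed per gene identifier and divided by median-of-ratios size factors. Log2(scaled TPM + 1) was fitted with limma 3.58.1 (R 4.3.3; trend, robust) in 3 fits of 17 mouse, 14 HT-22 and all 31 libraries, over genes with mean scaled TPM of at least 1, which were 17720, 17205 and 19517 genes; p-values were Benjamini-Hochberg adjusted within a contrast over all genes. The scripts were tested on simulated data. Tables were handled with Python 3.11.15, numpy 2.4.6 and pandas 2.3.3. All 10 genes are named; of the 7 pathway lists, up to 3 called genes per list and comparison are named, largest change first, except for a gene not reported here. The members and lists were chosen with earlier results of these data known. Alternatives were deposited TPM, upper-quartile scaling, a pseudocount of 0.1, a mean of at least 5, no filter, array weights, the compared groups alone, a replicate block and leaving out each library. Added after seeing the data were scaled coverage and HT-22 without 3 libraries.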

Additional observations from a re-analysis of the deposited data

Results flagged for a closer look

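Among the 2 HT-22 groups of 4 libraries, 14 sets of 4 values of the 7 tested genes were examined, and in 2 of them 1 library lay far from the other 3 by Dixon's ratio of gap to range at its 95% critical value. Chance does this in about 1 in 20 groups. Cdk5 in replicate 1 of scramble with amyloid peptide read 24.6 scaled TPM against 18.9 to 19.5 in the other 3, a ratio of 0.891. Mark1 in replicate 1 of scramble with reverse peptide read 3.61 against 2.16 to 2.38, a ratio of 0.852. Neither library is among the 3 with high immediate-early genes.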

How the results depend on the processing

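TPM as deposited moved the median of all genes by 0.598 (log2) for APP against WT at 6 months, -0.482 for WT from 3 to 6 months and -0.622 for anti-Hsf1 against scramble with amyloid peptide. Under it, the number of the 10 genes called went from 0 to 8 for APP against WT at 6 months, 2 over the average of ages, 7 for genotype by age and 8 for WT from 3 to 6 months. In HT-22 it went from 0 of 7 to 1 for the peptide with anti-Hsf1, 7 for anti-Hsf1 with amyloid peptide and 1 for the interaction. The number of all genes called rose as well. Of 17840 genes it was 10339 for APP against WT at 6 months, up from 268, and 1353 over the average of ages. It was 5910 for genotype by age and 6077 for WT from 3 to 6 months. Of 17291 genes in HT-22 it was 4197 for the peptide with anti-Hsf1, 8766 for anti-Hsf1 with amyloid peptide and 4379 for the interaction. Gsk3b in HT-22 against hippocampus was then 0.24, and Stmn4 in APP against WT at 6 months 0.084, both with the opposite sign.

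Array weights gave 1 call, Tubb3 for anti-Hsf1 with amyloid peptide (-0.97, adjusted p = 0.0495). Leaving out 1 library gave 0 to 1 calls in APP mice from 3 to 6 and from 3 to 12 months, and 0 in the other mouse and HT-22 comparisons. With the replicate number as a block, 0 of the 10 genes were called within mice and 0 of 7 within HT-22; same-numbered libraries did not deviate together, with a median correlation of -0.00637 over 40 mouse pairs and 0.013 over 19 HT-22 pairs. The block took the all-gene count from 39 to 14 for the average of ages and from 80 to 134 for genotype by age. With scaled coverage these counts were 68 for the average of ages, and with upper-quartile scaling 128 for genotype by age. The causes were not tested. Elsewhere 278 planned and 23 added values of these counts of called genes stayed within 1.5 times or at 0. Low genes limit the precision in HT-22, where 3 of the 10 fell under the filter.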
